A study of Homo sapiens with 6 samples.

Results

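TP63 and 8 other transcription factors known for epithelial identity were followed in MCF10A cells, an immortalised, non-tumorigenic line of human breast epithelial cells. The 9 genes are TP63, ZNF750, KLF5, TFAP2A, TFAP2C, GRHL1, GRHL2, ELF3 and EHF. They were chosen by name, and all 9 were found among the 27914 gene symbols of the table. Expression was measured by RNA sequencing as TPM, a unit scaled for transcript length and to the same total in every library. Of the 6 libraries, 3 came from control cells named SCRin with a wild-type genotype. The other 3 came from cells of genotype α-/-;βin, called depleted cells here because the series title names PI5P4K, a family of lipid kinases, and α and β were read as the enzymes encoded by PIP4K2A and PIP4K2B. Cells of both groups had been given doxycycline for 3 days. The labels do not explain SCR or in, and do not say whether a group is 1 clone or whether replicates were cultured apart. The p-values therefore reflect the spread between these 6 libraries alone, which may be technical.

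p63, the protein of TP63, is the master regulator of basal cells in stratified and glandular epithelia, where it maintains keratin, adhesion and hemidesmosome genes. TP63 has an upstream start, giving TAp63 forms, and an internal one, giving ΔNp63 forms, the kind most abundant in basal cells. KLF5 is a zinc finger factor of proliferating epithelial cells. TFAP2A and TFAP2C encode AP-2 factors of ectoderm, skin and breast. GRHL1 and GRHL2 are grainyhead-like factors that maintain junction genes, ELF3 and EHF are epithelial ETS factors, and ZNF750 is a p63-induced factor of squamous differentiation. Loss of such factors is known to loosen epithelial identity.

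As a check of the labels, PIP4K2A fell from 20.6 ± 1.02 to 4.20 ± 0.132 TPM and PIP4K2B from 21.8 ± 1.21 to 9.49 ± 1.83 TPM (SD, n = 3 each; limma adjusted p = 0.000847 and 0.00985). TPM keeps no read number, so the depth is unknown; between 14738 and 15058 genes were above 0 in a library. Basal epithelial markers, TP63 itself among them, were high in sum in every library, at 3973 to 7731 TPM in control cells and 4255 to 7178 TPM in depleted cells. All 10 of them had a mean over all libraries of at least 1 TPM. Of 10 luminal markers, 4 reached that mean, with summed levels of 632 to 728 and 567 to 680 TPM, and ELF5 and PROM1 were at 0 throughout. Of 8 fibroblast markers 2 reached it, with sums of 1.96 to 6.32 and 2.73 to 6.13 TPM, and COL3A1 and THY1 were at 0. Of 7 contractile myoepithelial markers 2 reached it (sums of 23.3 to 24.6 and 25.4 to 29.8 TPM), with MYH11 and CNN1 at 0. Of 8 immune markers 2 reached it (sums of 43.1 to 47.6 and 43.5 to 46.0 TPM), with PTPRC at 0. No endothelial or adipocyte marker, of 6 and 4, reached it.

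The 9 factors fell into 3 levels, and the order was nearly the same in both groups. KLF5 stood highest, followed by TFAP2A, TP63 and TFAP2C, and in both groups the ranges of neighbours among these 4 did not overlap. GRHL1, EHF and ELF3 lay near or under 1 TPM, with ranges that overlapped from each to the next. ZNF750 and GRHL2 were listed at 0 in all 6 libraries, as were 10440 symbols of the table in all. An exact 0 in such a table can be a failed estimate, so the 0 of GRHL2 and ZNF750 does not show that these genes were off. In RefSeq order ZNF750 lies inside TBCD, a tubulin folding cofactor gene measured at 24.3 TPM on average over the 6 libraries. RRM2B, the next tested gene after GRHL2, averaged 48.0 TPM over the 6 libraries.

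**Figure D1:**
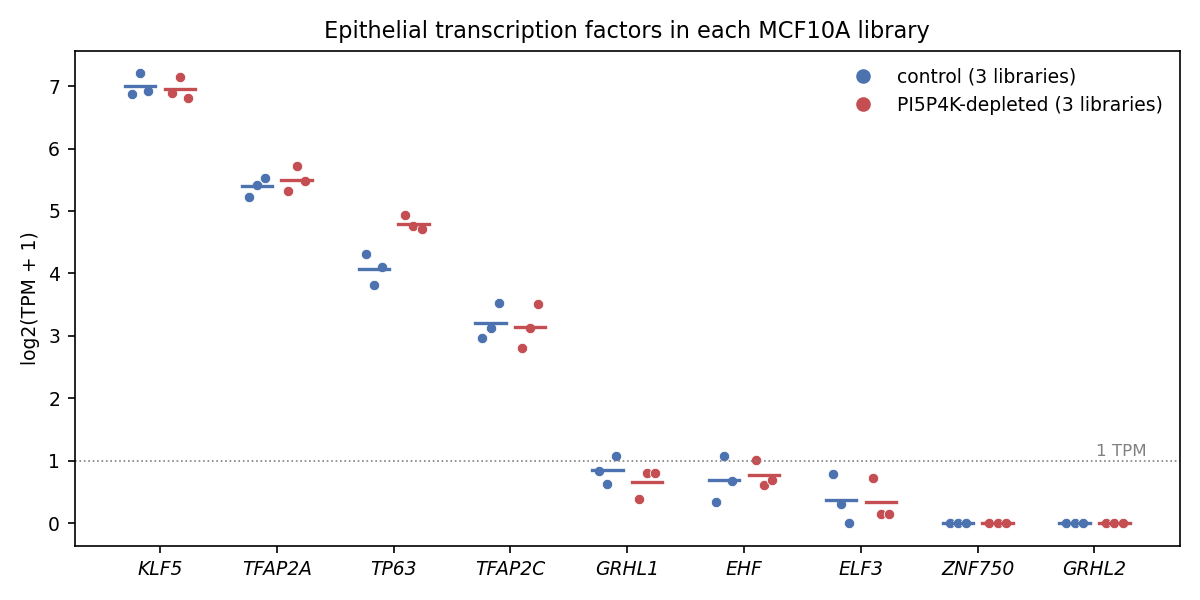
Expression of the 9 factors as log2(TPM + 1) on the vertical axis, 1 point per library and a bar at the mean of each group of 3. The depleted points of TP63 all lie above its controls, while the points of the other factors overlap or sit at 0.

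Start-site windows are shown for 4 factors that span this range of levels, with the CpG-rich one of the windows of KLF5 beside that of GRHL1. The windows run from 250 bases before to 50 bases after a gene start in RefSeq (GRCh38.p14), a build other than the hg19 named in the submitters' processing notes. Windows of 6 of the 9 factors were examined. The source of windows held none for ZNF750 or TFAP2C, and GRHL2 was left out. Capitals mark matches on either strand to GGGCGG, bound by SP and KLF factors, GCCNNNGGC, bound by AP-2, AACCGGTT, bound by grainyhead factors, a p53-family motif built from a pair of core sequences with a spacer, CCGGAAG, bound by ETS factors, TATAAA, and CCAAT.
TP63, upstream start, chr3:189631139-189631438, + strand: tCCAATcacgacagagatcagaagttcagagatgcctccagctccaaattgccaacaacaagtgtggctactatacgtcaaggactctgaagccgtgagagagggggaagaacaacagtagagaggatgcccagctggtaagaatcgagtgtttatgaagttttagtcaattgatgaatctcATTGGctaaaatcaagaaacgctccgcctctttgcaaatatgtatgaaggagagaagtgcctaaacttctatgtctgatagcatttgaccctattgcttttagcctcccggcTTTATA
KLF5, downstream start, chr13:73058755-73059054, + strand: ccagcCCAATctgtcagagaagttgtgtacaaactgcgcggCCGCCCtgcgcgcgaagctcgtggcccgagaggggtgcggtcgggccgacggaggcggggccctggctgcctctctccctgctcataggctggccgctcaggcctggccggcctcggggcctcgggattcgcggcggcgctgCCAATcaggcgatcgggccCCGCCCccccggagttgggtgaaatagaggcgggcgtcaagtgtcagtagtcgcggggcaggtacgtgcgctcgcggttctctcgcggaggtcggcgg
GRHL1, chr2:9951443-9951742, + strand: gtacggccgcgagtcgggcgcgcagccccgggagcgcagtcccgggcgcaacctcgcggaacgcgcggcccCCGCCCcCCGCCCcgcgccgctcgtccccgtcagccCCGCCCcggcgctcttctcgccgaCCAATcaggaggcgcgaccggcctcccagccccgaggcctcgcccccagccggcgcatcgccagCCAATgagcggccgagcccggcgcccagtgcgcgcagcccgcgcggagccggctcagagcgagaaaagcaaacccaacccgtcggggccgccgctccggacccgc
ELF3, chr1:202010337-202010636, + strand: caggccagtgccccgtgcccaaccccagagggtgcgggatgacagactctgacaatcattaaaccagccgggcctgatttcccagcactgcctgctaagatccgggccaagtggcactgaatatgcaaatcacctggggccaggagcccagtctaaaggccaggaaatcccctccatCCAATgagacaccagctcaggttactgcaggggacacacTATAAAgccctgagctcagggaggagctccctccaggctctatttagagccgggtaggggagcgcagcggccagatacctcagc

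The window of TP63 had 43.7% G and C, lower than most of 35116 RefSeq windows, whose median was 58.7%. That of KLF5 had 71.3% and that of GRHL1 79.7%, and their ratios of observed to expected CpG were 0.978 and 1.13, against 0.491 for TP63, 0.269 for ELF3 and a median of 0.579. A second KLF5 window, at its upstream start, had 40.7% and a CpG ratio of 0.331, with no GGGCGG or CCAAT, and the gene-level TPM does not separate the KLF5 starts either. GRHL1 averaged 0.707 TPM over the 6 libraries and KLF5 125 TPM. GGGCGG occurred 2 times in the KLF5 window and 3 times in that of GRHL1, and in 45.0% of all windows. TATAAA occurred once each in the windows of TP63 and ELF3 and in 11.5% of all windows. The TP63 match lies on the reverse strand, after the gene start, and that of ELF3 on the forward strand before it. CCAAT occurred in all 4 and in 34.6% of all windows. None of the 4 windows held GCCNNNGGC, AACCGGTT, the p53-family motif or CCGGAAG, which occurred in 23.2%, 0.134%, 0.373% and 10.3% of all windows. The TP63 window covers only the upstream start. GENCODE release 29 lists 12 protein-coding TP63 transcripts, of which 5 start within 1 kb of the first and 7 start 158 kb or more downstream, and the gene-level TPM does not separate them.

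TP63 had the largest difference among the 4 factors that could be tested, and it did not pass the test. TP63 measured 18.9, 13.1 and 16.2 TPM in control replicates 1 to 3 and 29.6, 26.0 and 25.1 TPM in depleted replicates 1 to 3. Every depleted library lay above every control. The means were 16.1 ± 2.88 and 26.9 ± 2.43 TPM (SD, n = 3), a ratio of 1.67. On the scale of log2(TPM + 1), which understates changes of low genes, the difference was 0.72 (SE 0.15, 95% interval 0.37 to 1.07, limma adjusted p = 0.0664, over the 12096 genes that averaged 1 TPM or more). An exact two-sided permutation test gave p = 0.1, the smallest that 3 libraries against 3 allow. Of all tested genes, 2.19% passed the threshold of 0.05 (0.364% higher and 1.83% lower in depleted cells), and 5.64% had depleted libraries all above the controls. Leaving out control replicate 1 brought TP63 past the threshold, at a log2 difference of 0.84 (limma adjusted p = 0.0495). So did a replicate block, described in the closing section (limma adjusted p = 0.0127). Over all 16 alternatives the limma adjusted p ranged from 0.0127 to 0.235, and TP63 did not pass under 14 of them.

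KLF5 and the AP-2 factors showed no difference beyond the spread between libraries. KLF5 measured 116, 147 and 120 TPM in control cells and 117, 141 and 111 TPM in depleted cells, and the groups overlapped over nearly their whole range. Its log2 difference was -0.05 (95% interval -0.36 to 0.26, limma adjusted p = 0.947). TFAP2A measured 36.5, 41.9 and 45.2 TPM in control cells and 38.8, 51.5 and 43.5 TPM in depleted cells, with overlapping groups and a log2 difference of 0.11 (95% interval -0.21 to 0.42, limma adjusted p = 0.844). The intervals of KLF5 and TFAP2A, and that of TFAP2C below, do not reach the TP63 log2 difference of 0.72. Those of TFAP2A and TFAP2C overlap the TP63 interval of 0.37 to 1.07. TFAP2C measured 6.83, 7.76 and 10.5 TPM in control cells and 5.98, 7.69 and 10.4 TPM in depleted cells. The spread of TFAP2C within each group was far larger than the gap between the groups, with a log2 difference of -0.06 (95% interval -0.59 to 0.47, limma adjusted p = 0.963). Its values rose from replicate 1 to replicate 3 in both groups. With a replicate block, described in the closing section, TFAP2C did not pass either (limma adjusted p = 0.743). So limma called 0 of the 4 tested factors higher and 0 lower. At an unadjusted p under 0.05 there was 1, TP63, where 3.72% of all tested genes were higher and 8.17% lower at that level.

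The other 5 factors stayed below the filter of 1 TPM and were not tested. GRHL1 measured 0.780, 0.551 and 1.11 TPM in control cells and 0.303, 0.751 and 0.746 TPM in depleted cells. EHF measured 0.267, 1.10 and 0.591 TPM against 1.02, 0.519 and 0.606 TPM. ELF3 measured 0.725 and 0.235 TPM in control replicates 1 and 2, was listed at 0 in control replicate 3, and measured 0.648, 0.107 and 0.106 TPM in depleted cells. The groups overlapped for GRHL1, EHF and ELF3, and values this low leave differences between them undetectable here.

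The factors lie on 9 different chromosomes, and none lies in the lowered stretches of chromosomes 7 and 3 that hold 164 of the 265 genes called in this comparison. TP63 lies on chromosome 3 outside that stretch. The 20 tested genes nearest to TP63, 10 on each side in RefSeq order, had a median log2 difference of -0.07, with values from -1.81 to 1.24, and 7 of 20 were above 0. RPL39L, a ribosomal protein paralog chosen once its value was known, was the only neighbour of any of the 9 factors that passed the test (log2 difference -1.31, limma adjusted p = 0.0432). Around GRHL2 on chromosome 8 the median was 0.10, with 12 of 20 above 0, the highest median of the 9 neighbourhoods. The medians around the other factors lay between -0.12 and -0.01. Around ZNF750 only 11 tested genes could be placed, since it lies near the end of chromosome 17.

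**Figure D2:**
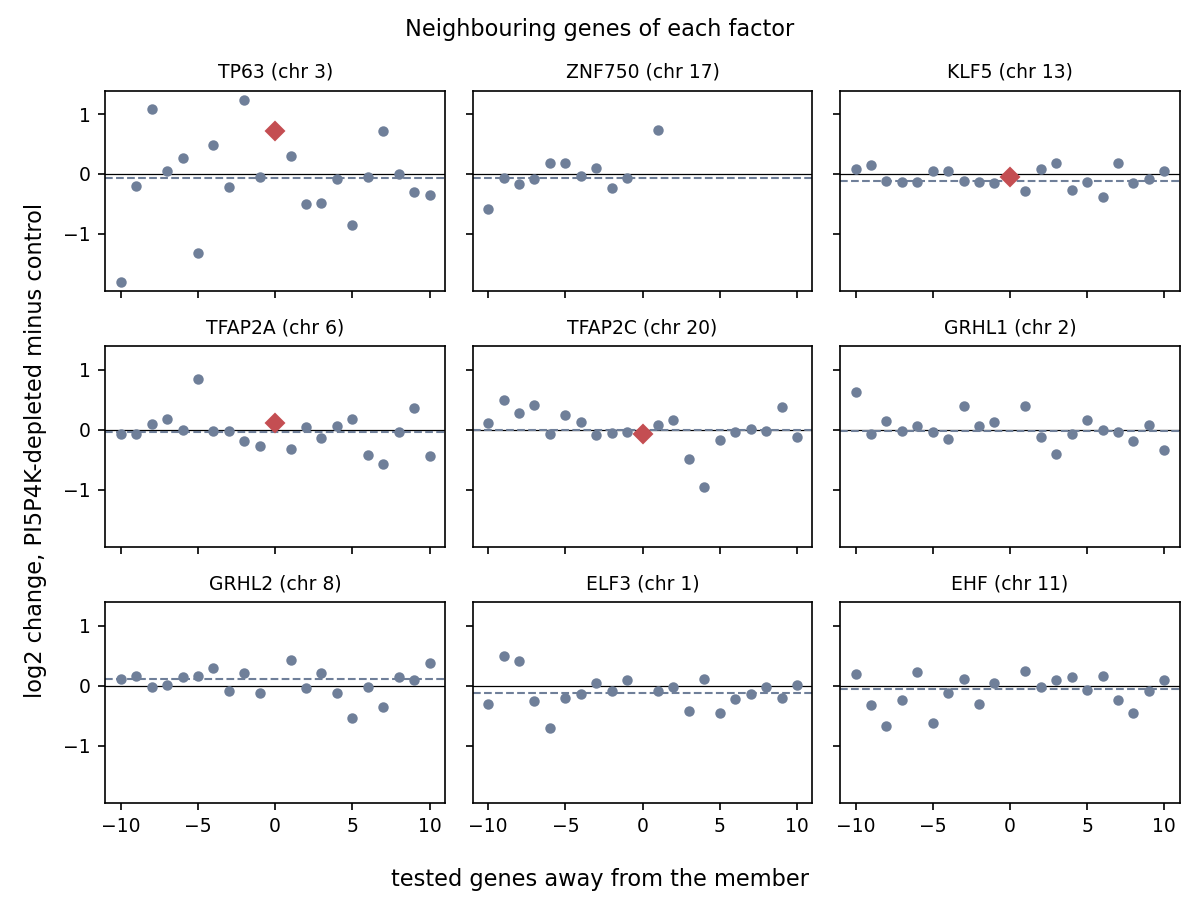
The log2 difference of up to 10 tested genes on each side of each factor (points, by number of genes away) with their median (dashed line) and, where tested, the factor itself (diamond). TP63 at 0.72 stands above the median of its neighbours, which is -0.07, but the highest of them stands above TP63, at 1.24.

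Genes widely described as p63 targets were mostly higher in depleted cells in value, though few passed the test. The list held 35 symbols for 34 genes, since NECTIN1 stood under 2 names. All 34 genes were in the table and 32 were tested. Of these, 2 were called higher, 1 was called lower and 29 did not pass, where 0.364% and 1.83% of all tested genes were called higher and lower. The median log2 difference was 0.42, beside -0.01 over all tested genes. Of the 32, 27 lay above 0, as did 46.7% of all tested genes. The groups did not overlap for 14 higher genes and 1 lower gene, where 5.64% and 11.4% of all tested genes did so. Several of these genes are also basal markers whose shift in these data was known when the list was written, so the count is no independent evidence. The means of the 32 genes, relative to the control mean, were 0.01, -0.17 and 0.16 in controls and 0.46, 0.21 and 0.43 in depleted libraries on the log2 scale, with a gap between the groups.

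FAT2, a giant protocadherin of squamous epithelia, rose the most among those called. It measured 3.20, 2.56 and 2.47 TPM in control cells and 9.08, 8.03 and 8.996 TPM in depleted cells, a ratio of 3.17 and a log2 difference of 1.38 (SE 0.14, limma adjusted p = 0.00602). NECTIN1, an adherens junction molecule, rose from 33.5 ± 2.35 to 58.5 ± 3.30 TPM (SD, n = 3; log2 difference 0.79, limma adjusted p = 0.00815). For both genes the groups were far apart and the call held under all 16 alternatives. EGFR, the epidermal growth factor receptor, fell from 206 ± 12.3 to 96.0 ± 1.97 TPM (log2 difference -1.09, limma adjusted p = 0.00308) and is 1 of 2 members in the lowered stretch of chromosome 7. Without those 2 the median of the list was 0.45.

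Other p63 targets, chosen once their values were known, fell on either side. KRT5, a basal keratin, measured 576, 590 and 837 TPM in control cells and 841, 1053 and 988 TPM in depleted cells, groups that barely cleared each other (limma adjusted p = 0.240). DST, a hemidesmosome linker, measured 43.3 ± 3.95 and 70.2 ± 13.2 TPM (adjusted p = 0.0812), and JAG1, a Notch ligand, 19.2 ± 2.64 and 30.9 ± 4.40 TPM (adjusted p = 0.0920). KRT14, the keratin partner of KRT5, varied too widely to judge, with 9.50, 9.03 and 67.9 TPM in control cells and 59.4, 27.7 and 108 TPM in depleted cells. The laminin chain genes LAMA3 and LAMB3 had values on the other side of 0, with log2 differences of -0.02 and -0.36, and neither passed.

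**Figure D3:**
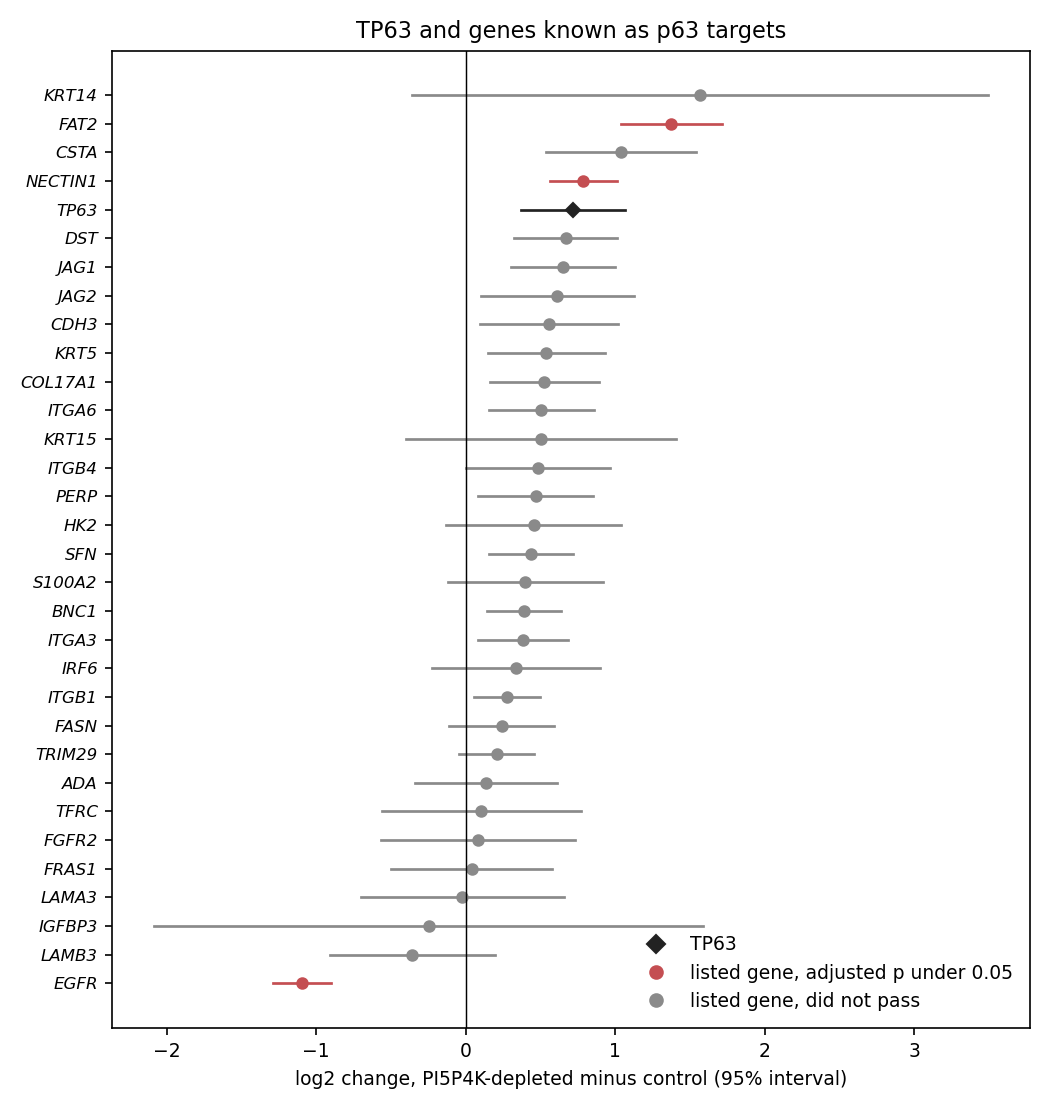
The log2 difference between depleted and control cells with its 95% interval for TP63 (diamond) and all but 1 of the 32 tested p63 targets, sorted by value. Most targets lie to the right of 0; FAT2 and NECTIN1 passed on that side and EGFR on the other.

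The genes with a profile most like that of TP63 over the 6 libraries were found by the root-mean-square difference of log2(TPM + 1), each gene centred on its control mean, among 9502 genes that averaged 5 TPM or more, leaving out LOC, LINC, microRNA, clone and short RNA names. PARD6G, a cell polarity scaffold, was the closest at 0.106, followed by TINAGL1, a secreted matricellular protein, at 0.123, and LRIF1, a nuclear receptor interacting factor, at 0.132. ZNF219 and CD82, a tetraspanin, came next at 0.136 each. LRIF1 and CD82 passed the test (log2 differences 0.72 and 0.64, limma adjusted p = 0.0163 and 0.0324), and PARD6G, TINAGL1 and ZNF219 did not. All 5 were picked for a profile like that of TP63, so their rise was built into the choice. Their test results are therefore no independent evidence. Of all tested genes, 0.364% were called higher. None of the 5 was on the p63 target list.

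Relatives of the factors in their DNA-binding families gave no call. Of 29, 20 were tested, and the median was 0.05. In either direction 0 passed, beside 2.19% of all tested genes. An unadjusted p under 0.05 was reached by 2, each higher, beside 11.9% of all tested genes in either direction. The most highly expressed was KLF6, an immediate-early zinc finger factor, with 131, 80.7 and 117 TPM in control cells and 147, 64.9 and 104 TPM in depleted cells (limma adjusted p = 0.949). Of the 9 that were not tested, TFAP2B, TFAP2D and ELF5 were listed at 0 in every library. GRHL3, the remaining grainyhead-like gene, chosen once its values were known, was listed at 0, 0.335 and 0 TPM in control cells and measured 0.978, 0.757 and 0.273 TPM in depleted cells, with overlapping groups.

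Other transcription factors of epithelial or mammary identity also gave no call: of 34, 26 were tested, 0 passed, and the median was 0.07. Over all tested genes, 0.364% were called higher and 1.83% lower. Of the 26, 8 had an unadjusted p under 0.05 (4 higher and 4 lower). At that level 3.72% of all tested genes were higher and 8.17% lower. The most highly expressed was ID1, an inhibitor of basic helix-loop-helix factors, at 126, 293 and 168 TPM against 187, 384 and 241 TPM (limma adjusted p = 0.691). Without control replicate 2, HES1, a Notch effector chosen once its value was known, was called higher. Of 17 transcription factors of mesenchymal identity, 13 were tested; 0 were higher and TWIST1, in the lowered stretch of chromosome 7, fell from 33.4 ± 1.40 to 15.4 ± 1.87 TPM (log2 difference -1.07, limma adjusted p = 0.00603). The median of the 13 was -0.03, and it turned positive under some alternatives, at 0.08 without control replicate 3. The depleted libraries lay above all controls for 4 of them, beside 5.64% of all tested genes, and below for TWIST1 alone. These 4, chosen once their values were known, were TWIST2, FOXC1, FOXF2 and TCF4, with log2 differences of 0.42, 0.39, 0.48 and 0.21, and limma passed none of them (adjusted p = 0.189, 0.210, 0.116 and 0.632). SNAI2, also chosen once its values were known, measured 249 ± 29.5 and 243 ± 26.6 TPM (SD, n = 3).

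Of the 7 lists, the grainyhead-like targets held the called gene with the largest rise. Of 32, 28 were tested, 1 was higher, 0 were lower, 27 did not pass, and the median was 0.06 (-0.09 without control replicate 2). Over all tested genes, 0.364% were called higher and 1.83% lower. EPCAM, which encodes a surface protein of epithelial cell contacts, rose from 10.02 ± 0.791 to 49.5 ± 5.46 TPM (log2 difference 2.19, SE 0.12, limma adjusted p = 0.000847). RAB25, an epithelial trafficking GTPase chosen once its values were known, measured 3.79, 1.75 and 1.75 TPM in control cells. In depleted replicates 1 and 3 it measured 0.176 TPM each, and in replicate 2 it was at 0 (limma adjusted p = 0.0584). It was called lower with no mean-variance trend and when short RNA genes were left out. ESRP1, an epithelial splicing regulator, and CDH1, E-cadherin, both chosen once their values were known, measured 43.2 ± 3.49 and 36.2 ± 9.24 TPM, and 24.4 ± 6.94 and 27.7 ± 8.65 TPM, and did not pass. MUC1, a mucin chosen once its values were known, was called lower without depleted replicate 1, where it measured 18.7 TPM against 5.42 and 6.24 TPM in the others.

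Squamous differentiation genes gave no call. Of 35, 14 reached 1 TPM, beside 43.3% of all symbols in the table. Of these 0 passed, beside 2.19% of all tested genes. An unadjusted p under 0.05 was reached by 2, beside 11.9% of all tested genes. Listed at 0 in all libraries were 7, TGM3, LOR, KRT1, CRNN, DSG1, DSC1 and CALML5. The most highly expressed of those tested was PI3, the protease inhibitor elafin, at 40.0, 14.2 and 58.9 TPM against 25.7, 15.3 and 49.0 TPM (limma adjusted p = 0.930). SPRR1B, a cornified envelope precursor chosen once its values were known, was called higher without depleted replicate 2. It was listed at 0 in control replicates 1 and 2, measured 0.438 TPM in control replicate 3, and measured 5.26, 0.501 and 3.41 TPM in depleted cells. Genes described downstream of KLF5, AP-2, ELF3 or EHF gave 1 call among 17 tested, the fall of EGFR. Over all tested genes, 1.83% were called lower. The median of this list was -0.04 (-0.22 without control replicate 1). MUC1, which is on this list too, was the second call without depleted replicate 1.

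**Figure D4:**
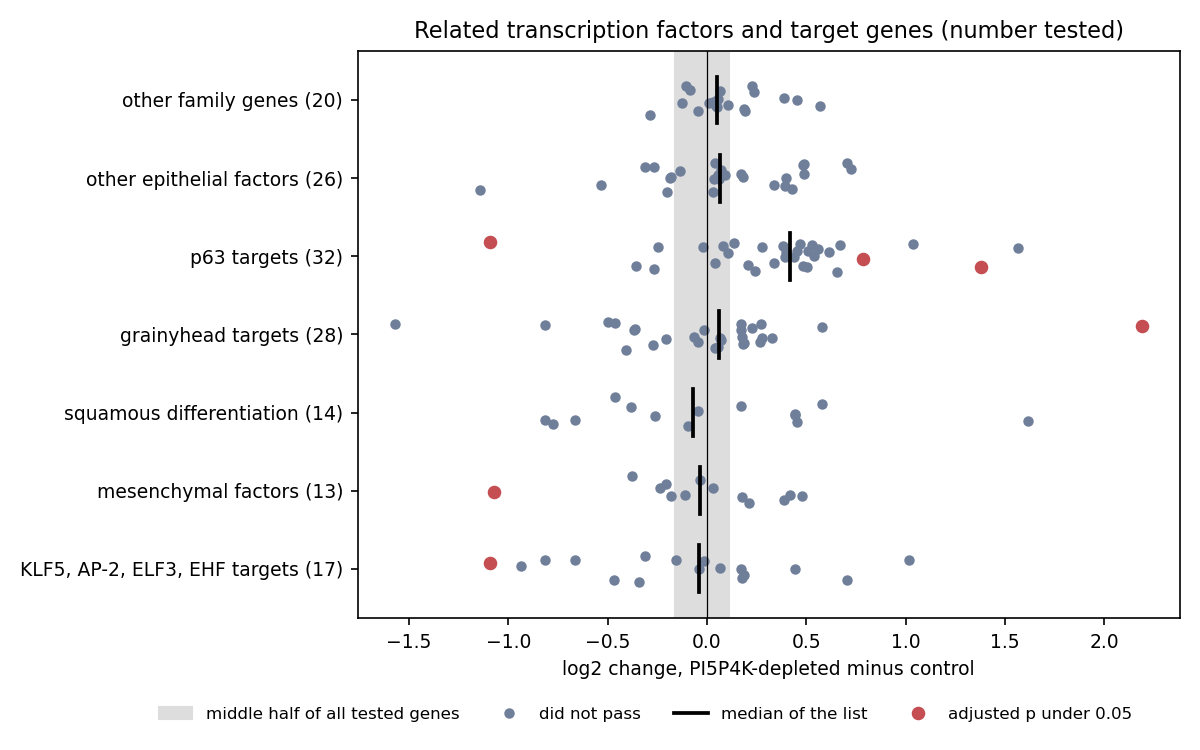
The log2 difference of every tested gene in the 7 lists (points, red where adjusted p was under 0.05), with the median of each list (black bar) and the range from the lower to the upper quartile of all tested genes (grey band). The bar of the p63 targets, at 0.42, lies to the right of the band, and the bars of the other 6 lists lie within it.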

How the data were processed

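The authors deposited 1 table of TPM for 27914 gene symbols, with 1 column per library; each deposited TPM column sums to 1000000. The build hg19 and DESeq2 are named, without a role, per the submitters' processing notes. For the aligner, quantification program, annotation and strandedness, the sources used here give nothing. The names of 3 columns gave the control group and a replicate number; the other 3, headed as the experiment, were assigned to the remaining group by replicate number. No column was left out.

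From these values log2(TPM + 1) was computed. The 12096 genes (43.3%) that averaged 1 TPM or more over the 6 libraries were tested two-sided with limma 3.58.1 in R 4.3.3, its variances moderated toward a trend on mean level. Adjustment was by Benjamini-Hochberg over all of them, with a threshold of 0.05. Single genes were also compared by an exact permutation test in scipy 1.17.1.

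The 9 members, the 7 gene lists, written from general knowledge, and the tests were chosen with earlier results of these data known. Named were the 9 members, from each list up to 2 called genes in each direction or else the most highly expressed tested one, and the 5 genes most like TP63; any other gene is marked as chosen once its values were known, except the 2 targeted genes, markers at 0 and neighbours. Gene order came from RefSeq (GRCh38.p14), which placed 27010 symbols, and was used for names and neighbours only. The 16 alternatives are described in the closing section. For 2 genes of the lists, values are not reported here; they stay in the counts and medians.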

Additional observations from a re-analysis of the deposited data

How the results depend on the processing

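TP63 was higher in depleted cells under all 16 alternatives, with log2 differences of 0.59 to 0.84, and passed the test under 2 of them. FAT2, NECTIN1 and EPCAM passed under all 16, and EGFR and TWIST1 under the 15 that could test them. With 6 libraries and TPM that carry no read number, low factors could not be judged. Of the recomputed counts of calls, 255 stayed within 1.5 times the main count and 33 did not. Most of those that stayed were 0 in the main fit and 0 again. The main counts over all tested genes, 44 higher and 221 lower, moved more often.

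Replicate numbers are shared between the groups. Libraries with the same number had correlated deviations of 0.246, 0.269 and -0.015 for replicates 1, 2 and 3. Control replicate 2 with depleted replicate 1 gave -0.293, and control replicate 1 with depleted replicate 2 gave -0.238. Replicates 1 and 2 correlated best with their own number and replicate 3 did not, so the main fit did not treat them as pairs. The calls depend on this choice. With a replicate block, 284 genes were called higher and 597 lower, in place of 44 and 221. The block called 1 of the 9 factors (TP63, limma adjusted p = 0.0127), 1 family relative, 2 epithelial factors (1 of them ID1), 16 p63 targets, 2 grainyhead targets and 1 mesenchymal factor higher. It called 1 epithelial factor, 1 grainyhead target, 1 differentiation gene, 2 mesenchymal factors and 2 targets of KLF5, AP-2, ELF3 or EHF lower.

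Without the genes of the lowered stretches, 14 genes were called higher and 31 lower, and the calls of lower p63 targets, mesenchymal factors and KLF5, AP-2, ELF3 or EHF targets went to 0, because the called genes lie there. With no mean-variance trend, and without short RNA genes, 1 grainyhead target was called lower in place of 0. Leaving out 1 library at a time gave 13 (without depleted replicate 3) to 30 genes called higher and 91 (without control replicate 3) to 189 lower. The same omissions gave 0 to 1 of the 9 factors, 0 to 1 epithelial factors and 0 to 1 differentiation genes called higher, 0 to 1 grainyhead targets called lower and 1 to 2 targets of KLF5, AP-2, ELF3 or EHF called lower. Log2 differences of single genes were followed only for the tested members and the genes named by rule from the lists. Of these, 4 that did not pass changed sign when 1 library was left out. KLF5 ranged from -0.15 to 0.057, TFAP2C from -0.25 to 0.11, KLF6 from -0.38 to 0.20 and PI3 from -0.83 to 0.16. Over all 16 alternatives the median log2 difference of the p63 targets ranged from 0.33 to 0.47, of the family relatives from 0.04 to 0.11 and of the epithelial factors from 0.02 to 0.13. Medians of the other 4 lists took both signs: -0.09 to 0.17 for grainyhead targets, -0.10 to 0.15 for differentiation genes, -0.06 to 0.18 for mesenchymal factors and -0.22 to 0.05 for targets of KLF5, AP-2, ELF3 or EHF. The cause was not tested.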
